A study of Mus musculus with 3 samples.

Results

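The distal ends of the mouse autosomes are the chromosome tips that lie away from the centromere. They were taken here as all listed regions on chromosomes 1 to 19 whose midpoint lies within 3 Mb of the last base that either peak list covers on that chromosome. The data are peak lists from chromatin immunoprecipitation with sequencing (ChIP-seq) in C2C12, an established mouse myoblast line of strain C3H, kept as proliferating myoblasts. A homemade rabbit polyclonal antibody against KAP1 gave 1 library and a Diagenode antibody against H3K9me3, histone H3 trimethylated on lysine 9, gave the other, both from cells in the same growing state. The labels name no altered gene and no added agent for either. A further library, made with no antibody, was not analysed here. Of the 19549 KAP1 peaks in the series 503 lay in the distal ends, and of the 39526 H3K9me3 regions 1136 did, so that 1639 of 59075 listed regions are described. The rest of the same autosomes held 17673 KAP1 peaks and 35786 H3K9me3 regions in 2357 Mb, against 57 Mb of distal ends. With 1 library per antibody there is no replicate and no test between conditions, and the lists hold no marker by which the cell type could be checked. Intervals below are 95% intervals for counting error over regions. Neighbouring regions are not independent, so the true uncertainty is wider, and the read depth is not given in the sources used here.

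H3K9me3 is the histone mark of constitutive heterochromatin, where it is bound by HP1 proteins. KAP1 (TRIM28) does not read DNA sequence itself. Zinc finger proteins with a KRAB domain recruit it, and it works with SETDB1, a methyltransferase that makes H3K9me3. Mouse autosomes are telocentric, which means that one tip of each lies beside the centromere and the other, the distal one, is far from it. Subtelomeric DNA just inside a telomere is known for repeats and recent duplications, and heterochromatin marks are known at telomeres. Reads from the telomere repeats themselves cannot be placed at one position, so the lists describe the DNA inside the telomere.

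Most chromosomes ended with the mark, which also made up most of the listed regions. The last listed region was an H3K9me3 region on 16 of the 19 autosomes and a KAP1 peak on 3, namely chromosomes 2, 7 and 12. The H3K9me3 list is the longer of the pair, with 36922 of the 55098 regions listed on the autosomes. Its length was not corrected for in this count. On chromosome 9 the list ended with an H3K9me3 region of 6234 bp (chr9:124069693-124075926, score 603), on chromosome 16 with one of 4366 bp (chr16:98295906-98300271, score 308) and on chromosome 4 with one of 4310 bp (chr4:155531975-155536284, score 397). At the other extreme stood chromosome 10, where the last region spanned 52 bp (chr10:129991622-129991673, score 13). The last H3K9me3 region of a chromosome had a median width of 705 bp and a median score of 61. Widths and scores of these final regions therefore covered a range from near the lowest to broad. The score of a list is the authors' own and is compared only within its list.

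The last KAP1 peak of a chromosome lay a median of 46.8 kb inside the last covered base, and the distance ran from 0 to 381.8 kb. On 8 autosomes it was within 10 kb of that base. Among these are chromosomes 2, 7 and 12, where the KAP1 peak itself set the last base and the distance is 0 by definition. The distance was longest on chromosome 9, and on chromosomes 15 and 19 the last KAP1 peak stood 0.408 kb and 0.203 kb from the end. In 12 of 19 cases this outermost KAP1 peak overlapped H3K9me3, and overlap means at least 1 shared bp throughout. In the rest of the autosomes 43.9% of KAP1 peaks overlapped. On chromosomes 4, 15 and 19 the outermost region of the mark also held a KAP1 peak. The outermost KAP1 peaks had a median score of 103.0 and ranged from 72.8 on chromosome 11 to 460.2 on chromosome 17.

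Both lists held more regions per Mb at the very tip than in the rest of the chromosomes. In the outermost 500 kb the 19 ends together held 122 KAP1 peaks, or 12.8 per Mb (10.7 to 15.3), against 7.50 per Mb (7.39 to 7.61) in the rest. They held 285 H3K9me3 regions, or 30.0 per Mb (26.6 to 33.7), against 15.2 (15.02 to 15.34). The ratio to the rest was 1.71 (1.42 to 2.05) for KAP1 and 1.98 (1.75 to 2.22) for H3K9me3. The mark covered 4.005% of the outermost 500 kb and 1.53% of the rest. KAP1 covered 1.00% and 0.566%. Because each end was set by its own last region, that region always falls in the outermost step. Without the 3 KAP1 peaks and 16 H3K9me3 regions that set the ends, the ratios were 1.67 (1.38 to 2.00) and 1.87 (1.65 to 2.10). The covered shares given above include these regions.

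KAP1 fell off over the outer 2 Mb, and H3K9me3 followed another course. Counted from the end in steps of 500 kb, KAP1 density was 9.79 per Mb in step 2, whose interval (7.90 to 11.99) lay above the rest, and 8.53 in step 3. It was 6.84, 7.58 and 7.37 per Mb in steps 4, 5 and 6, and in steps 3 to 6 each interval held the value of the rest. H3K9me3 dropped at once, to 13.3 per Mb in step 2 and 12.5 in step 3. It was then 15.4, 17.4 and 31.1 per Mb in steps 4, 5 and 6. The sixth step, from 2.5 to 3 Mb, was thus as dense as the tip itself, but rested on few chromosomes. Chromosomes 2 and 4 supplied 135 of its 295 regions (45.8%), and the other 17 chromosomes held 18.8 per Mb there (16.0 to 22.0). Over steps 2 to 6 together the ratio to the rest was 1.07 (0.964 to 1.18) for KAP1 and 1.18 (1.10 to 1.26) for H3K9me3.

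**Figure D1:**
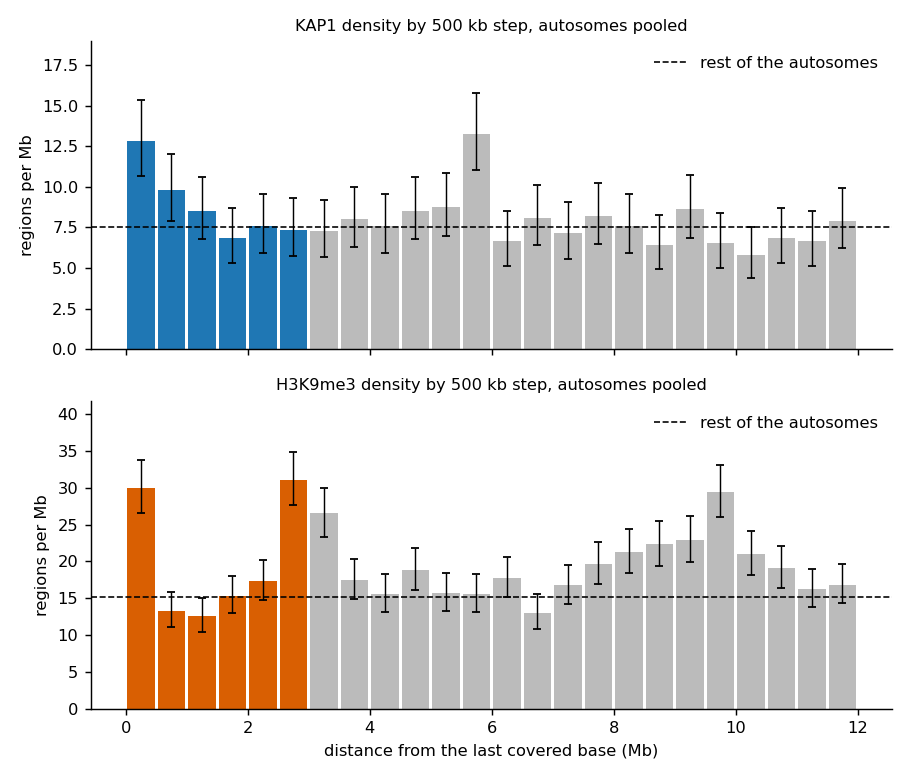
Regions per Mb in 500 kb steps from the last covered base, summed over the 19 autosomes, for KAP1 (top) and H3K9me3 (bottom). Coloured bars are the distal ends, grey bars continue inward to 12 Mb, error bars are exact 95% Poisson intervals and the dashed line is the rest of the autosomes. KAP1 stands at 12.8 per Mb in step 1 and again at 13.3 in step 12, and H3K9me3 at 30.0 and 31.1 per Mb in steps 1 and 6, 26.5 in step 7 and 29.4 in step 20.

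Other steps were as dense, so the values at the tip are not the highest to be found nearby. Between 5.5 and 6 Mb from the end KAP1 reached 13.3 per Mb (11.05 to 15.8), where 56 of 126 peaks lay on chromosome 8. Between 9.5 and 10 Mb H3K9me3 stood at 29.4 per Mb (26.0 to 33.0), with 73 of 279 regions on chromosome 4. In the outermost step the largest single share was 12 of 122 KAP1 peaks, on chromosome 18 and likewise on chromosome 6. For H3K9me3 it was 39 of 285, on chromosome 6. Without chromosome 6 the outermost step held 246 H3K9me3 regions, 27.3 per Mb (24.02 to 30.97).

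Steps of 100 kb, added after the wider steps were seen, put the dense H3K9me3 in the outer 400 kb. From the last base inward the first 5 such steps held 104, 67, 47, 42 and 25 H3K9me3 regions. The densities were 54.7 per Mb (44.7 to 66.3) in step 1 and 13.2 (8.52 to 19.4) in step 5. The interval lay above the density of the rest in steps 1 to 4 and included it in step 5. Coverage by the mark was 8.33% of the outermost 100 kb, 4.97% of the next and 1.54% of step 5. The first of these values includes the H3K9me3 regions that set the ends and was not recomputed without them. KAP1 showed 38, 23, 22, 17 and 22 peaks in the same steps, and over the outer 1 Mb its interval lay above the rest in steps 1, 2, 7 and 10. Step 7 held 14.7 KAP1 peaks per Mb (9.79 to 21.3), more than step 2 with 12.1 (7.67 to 18.2). In the outermost 100 kb the KAP1 density was 20 per Mb (14.2 to 27.5), with peaks on 15 of the 19 chromosomes, and 24 of the 38 peaks overlapped the mark (63.2%, 47.3 to 76.6). Without the regions that set the ends, the outermost 100 kb held 3.05 times the H3K9me3 density of the rest (2.45 to 3.76) and 2.46 times that of KAP1 (1.71 to 3.42).

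**Figure D2:**
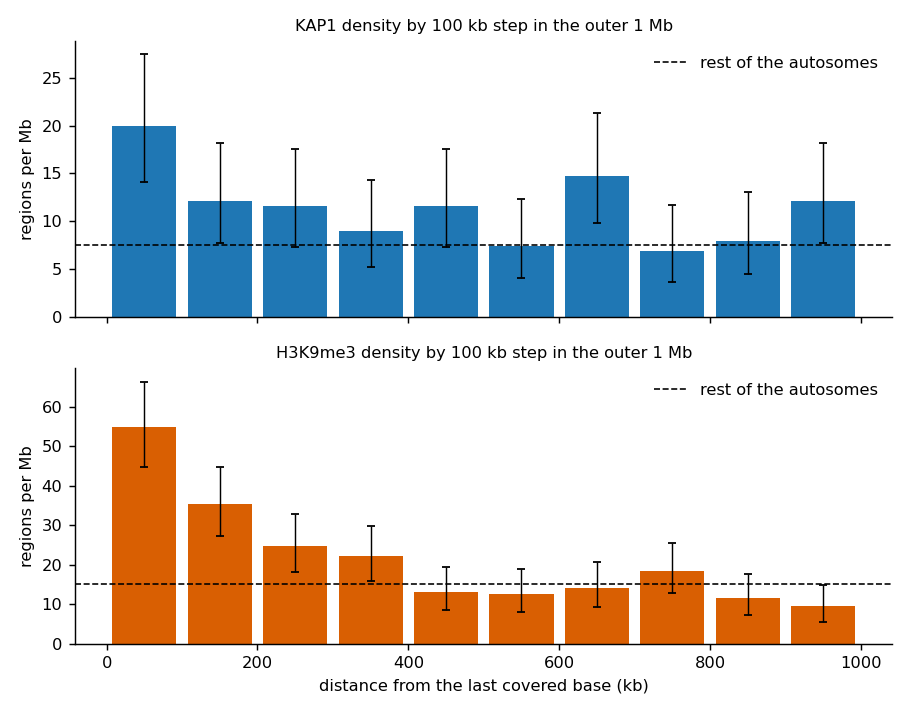
Regions per Mb in 100 kb steps over the outer 1 Mb of the 19 autosomes, with exact 95% Poisson intervals and the rest of the autosomes as a dashed line. H3K9me3 falls from 54.7 per Mb at the last covered base to 13.2 in step 5, and KAP1 is highest, at 20 per Mb, in step 1 and next highest, at 14.7, in step 7.

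The excess at the tip was found on most but not all chromosomes. The outermost 500 kb was denser in H3K9me3 than the rest of the same chromosome on 13 of 19 autosomes, where 39.2% of the 4704 bins of 500 kb in the rest were denser than their own chromosome. For 11 of these the interval of the ratio lay above 1, as it did for 8.57% of bins. Against all 500 kb bins of the rest, 11 of the 19 outermost steps exceeded 13 regions, the 90th percentile, which 9.76% of bins did. On 16 autosomes the step includes the H3K9me3 region that set the end, and the bins hold no such region by definition. These counts of autosomes were not repeated without those regions. The lowest of the lower bounds above 1 was 1.05, on chromosome 10 with 17 regions. The highest ratio was on chromosome 6, 5.77 (4.09 to 7.91), where none of the 286 bins in the rest held as many as its 39 regions. Chromosome 11 followed at 3.68 (2.32 to 5.54) with 23 regions, and chromosome 5 at 3.38 (2.18 to 5.00) with 25. Chromosome 7 had 2 regions in that step and chromosome 9 had 3. Chromosomes 2, 4, 7, 9, 13 and 15 were below their own rest.

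KAP1 in the outermost step also lay above the rest on 13 of 19 autosomes, where 40.8% of bins in the rest did. The interval was above 1 on 4 of them, chromosomes 4, 5, 6 and 18, and in 7.31% of bins. Their peak numbers were 11, 11, 12 and 12, against a median of 3 per bin in the rest. Above 8 peaks, the 90th percentile of bins, lay 5 of the 19 steps and 7.27% of bins. On chromosome 18 the ratio was 3.44 (1.77 to 6.05) and 2 of 169 bins of the rest held as many peaks. Chromosomes 7, 8 and 17 had 2 KAP1 peaks each in the outermost step, so the tip was not dense in KAP1 on every chromosome.

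**Figure D3:**
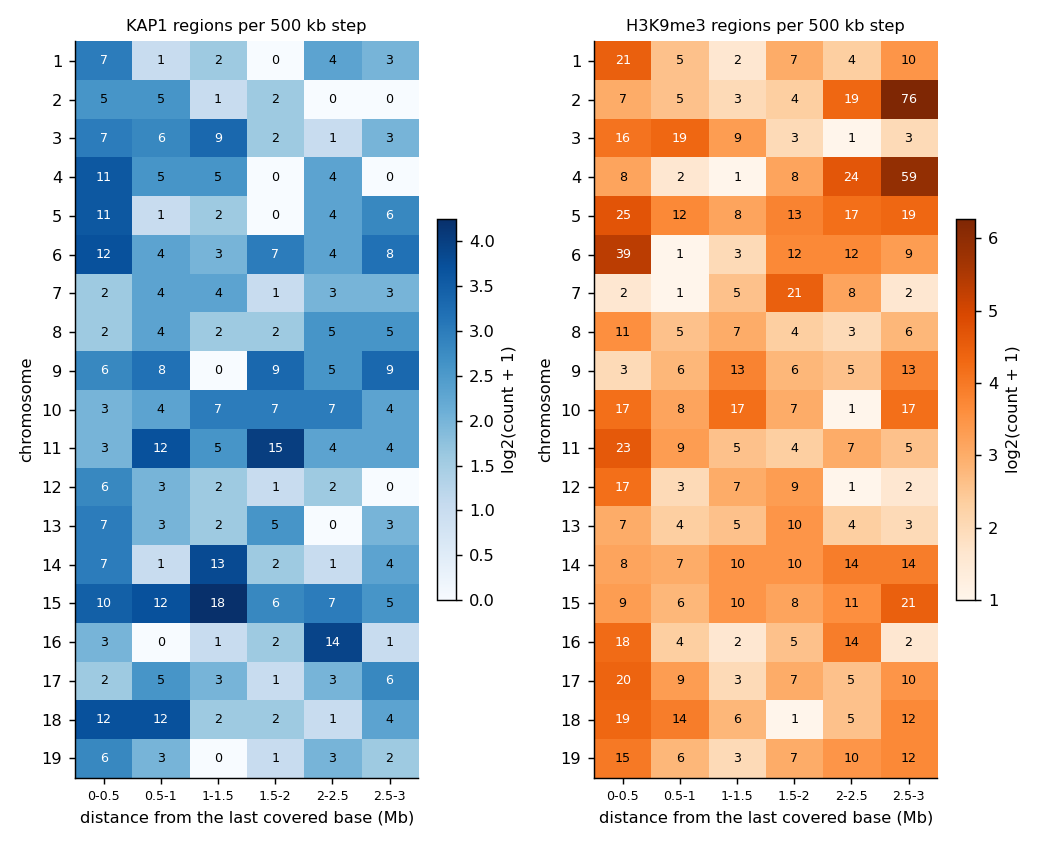
Number of KAP1 peaks (left) and H3K9me3 regions (right) in each 500 kb step of each distal end, with colour on a log2(count + 1) scale. The column nearest the end is the darkest for many chromosomes, and the darkest H3K9me3 cells are step 6 of chromosomes 2 and 4, with 76 and 59 regions.

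Over the whole 3 Mb the excess was smaller. The distal ends held 8.82 KAP1 peaks per Mb (8.07 to 9.63), a ratio to the rest of 1.18 (1.08 to 1.29). They held 19.9 H3K9me3 regions per Mb (18.8 to 21.1), a ratio of 1.31 (1.24 to 1.39). H3K9me3 covered 2.15% of the distal ends and 1.53% of the rest. KAP1 covered 0.642% and 0.566%. For H3K9me3 regions without KAP1 the ratio was 1.35 (1.27 to 1.44), and for those with KAP1 it was 1.10 (0.926 to 1.30), an interval that includes 1. For KAP1 peaks the ratios were 1.15 (1.00016 to 1.32) with the mark and 1.198 (1.06 to 1.35) without it. Without chromosomes 2 and 4 the H3K9me3 ratio was 1.198 (1.12 to 1.28).

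Chromosome by chromosome, KAP1 was denser in the distal end than in the rest on 10 of 19 autosomes, beside 42.0% of the 774 tiles of 3 Mb into which the rest was cut. The interval lay above 1 on 5, beside 11.2% of tiles. Those 5 were chromosome 11 (43 peaks, ratio 1.95, 1.40 to 2.65), chromosome 9 (37 peaks, 1.91, 1.33 to 2.65), chromosome 6 (38 peaks, 1.70, 1.19 to 2.34), chromosome 15 (58 peaks, 1.66, 1.255 to 2.17) and chromosome 18 (33 peaks, 1.57, 1.07 to 2.24). The lowest ratio was on chromosome 2, 0.651 (0.345 to 1.12), with 13 peaks, where the interval included 1. The median end held 24 KAP1 peaks and the median tile 21.

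For H3K9me3 14 of 19 ends were denser than the rest, beside 39.0% of tiles. The interval lay above 1 on 9, beside 14.6% of tiles, and below 1 on 2, beside 24.7%. The highest ratios were on chromosome 2 (38.0 regions per Mb, 2.57, 2.11 to 3.10), chromosome 5 (94 regions, 2.12, 1.70 to 2.60), chromosome 4 (102 regions, 1.96, 1.59 to 2.39), chromosome 6 (76 regions, 1.87, 1.47 to 2.36) and chromosome 14 (63 regions, 1.70, 1.30 to 2.19). Chromosomes 9, 11, 18 and 19 had ratios of 1.41, 1.41, 1.34 and 1.41, with lower bounds of 1.02, 1.05, 1.01 and 1.05. The lowest were chromosome 13 (33 regions, 0.535, 0.368 to 0.754) and chromosome 15 (65 regions, 0.734, 0.565 to 0.939). The median end held 53 H3K9me3 regions and the median tile 39.

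**Figure D4:**
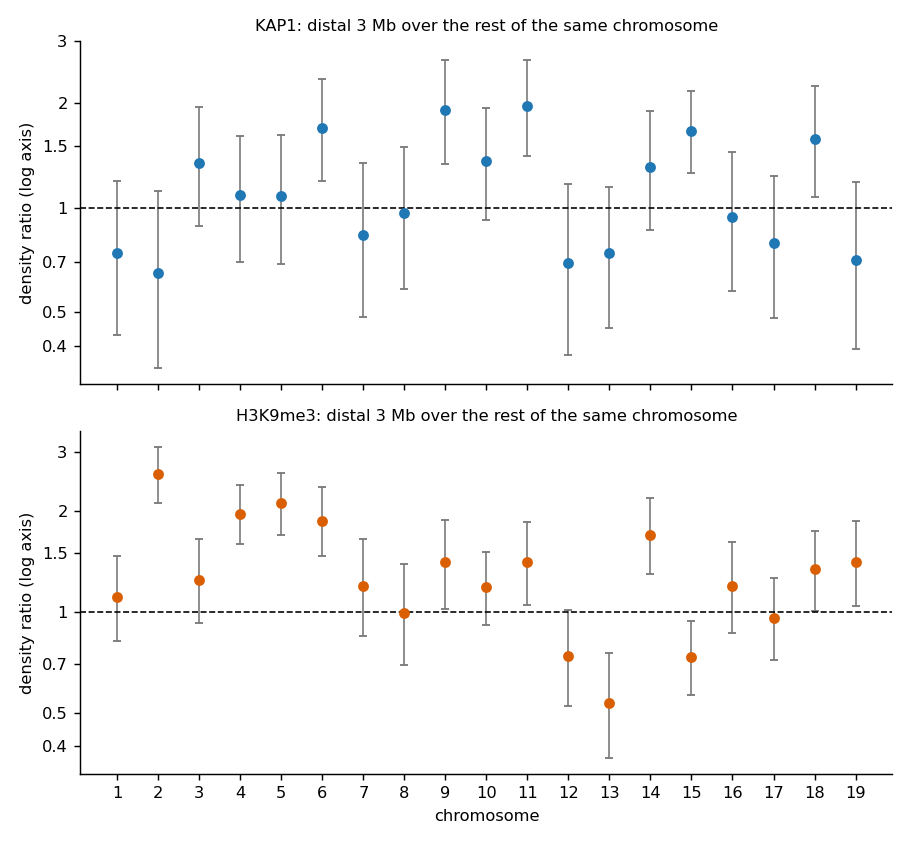
Density in the distal 3 Mb divided by density in the rest of the same chromosome, on a log axis, for KAP1 (top) and H3K9me3 (bottom). Bars are exact 95% intervals for counting error, and the dashed line marks equal density. KAP1 lies above the line with its interval on 5 chromosomes and H3K9me3 on 9, while chromosomes 13 and 15 lie below it for H3K9me3.

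The lists did not always move together. Both were denser in the distal end on 9 autosomes and both were less dense on 4. On 5 only H3K9me3 was denser and on 1, chromosome 15, only KAP1. These joint counts were not made for tiles of the rest, and the interval of the KAP1 ratio included 1 on most autosomes. In the end of chromosome 15 KAP1 stood at 19.3 per Mb, the highest of all ends, while 9 of its 58 peaks overlapped the mark (15.5%, against 32.0% in the rest of that chromosome). Step 3 there, chr15:101987678-102487677, held 18 KAP1 peaks, the most of any step in the distal ends, and none overlapped H3K9me3, although 10 H3K9me3 regions lay in the same step. The median score of those 18 peaks was 111.7 and the highest 208.9. The next most KAP1-rich steps were chr11:119837410-120337409, with 15 peaks of which 5 overlapped, and chr16:95800272-96300271, with 14 peaks of which 2 did.

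The opposite pattern, many H3K9me3 regions with no KAP1, was seen on chromosomes 2 and 4. On chromosome 2 steps 5 and 6 held 19 and 76 H3K9me3 regions and 0 KAP1 peaks, and a count of 0 allows up to 3. The sixth step, chr2:178741873-179241872, was covered by 66.7 kb of the mark, and its scores had a median of 46 and a maximum of 813. The median distance from these regions to a KAP1 peak was 455.2 kb. On chromosome 4 step 6, chr4:152536285-153036284, held 59 H3K9me3 regions and 0 KAP1 peaks, with a median distance of 275.7 kb. The density did not stop at the 3 Mb limit, since the next step inward held 39 regions on chromosome 2 and 73 on chromosome 4. Next in density came the tip of chromosome 6, chr6:148992691-149492690, and it was different in kind. Its 39 H3K9me3 regions covered 62.4 kb with a median score of 94, 10 of them held KAP1, and 10 of its 12 KAP1 peaks overlapped the mark. Over the 6 steps of each of the 19 ends, 11 steps in all held no KAP1 peak and none was without H3K9me3. Of the 4704 bins of 500 kb in the rest, 525 held no KAP1 peak and 134 held no H3K9me3 region. Steps without KAP1 were thus not particular to the ends.

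Overlap between the lists changed along the end. In the outermost 500 kb 67 of 122 KAP1 peaks overlapped H3K9me3 (54.9%, 46.1 to 63.5), against 43.9% (43.2 to 44.7) in the rest, a difference of 10.98 percentage points (2.10 to 19.6). The share was 49.5% in step 2, 39.5% in step 3, 36.9% in step 4, 29.2% in step 5 (19.9 to 40.5) and 37.1% in step 6. Over steps 2 to 6 it was 39.1%, a difference from the rest of -4.84 points (-9.66 to 0.204). Over the whole 3 Mb 216 of 503 peaks overlapped (42.9%, 38.7 to 47.3), a difference from the rest of -1.0 points (-5.32 to 3.42), which was 1.76 points without chromosome 15 (-2.89 to 6.46). The difference at the tip rested partly on chromosome 6. Without it the difference was 7.53 points (-1.74 to 16.7). The share at the tip was not particular to it, since between 6 and 12 Mb from the end single steps reached 55.6% (43.3 to 67.2) and 55.1% (44.1 to 65.7).

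The same gain can be given per chromosome length. KAP1 peaks with the mark were 2.14 times as dense in the outermost step as in the rest (1.66 to 2.72), and KAP1 peaks without it 1.38 times (1.04 to 1.79). The latter include the 3 KAP1 peaks that set the ends of chromosomes 2, 7 and 12, none of which overlapped the mark. These 3 lie in the outermost step by definition. The ratio was not recomputed without them, and its lower bound is close to 1. More of the outermost step was covered by H3K9me3, as given above, and its part in the higher overlap was not tested.

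**Figure D5:**
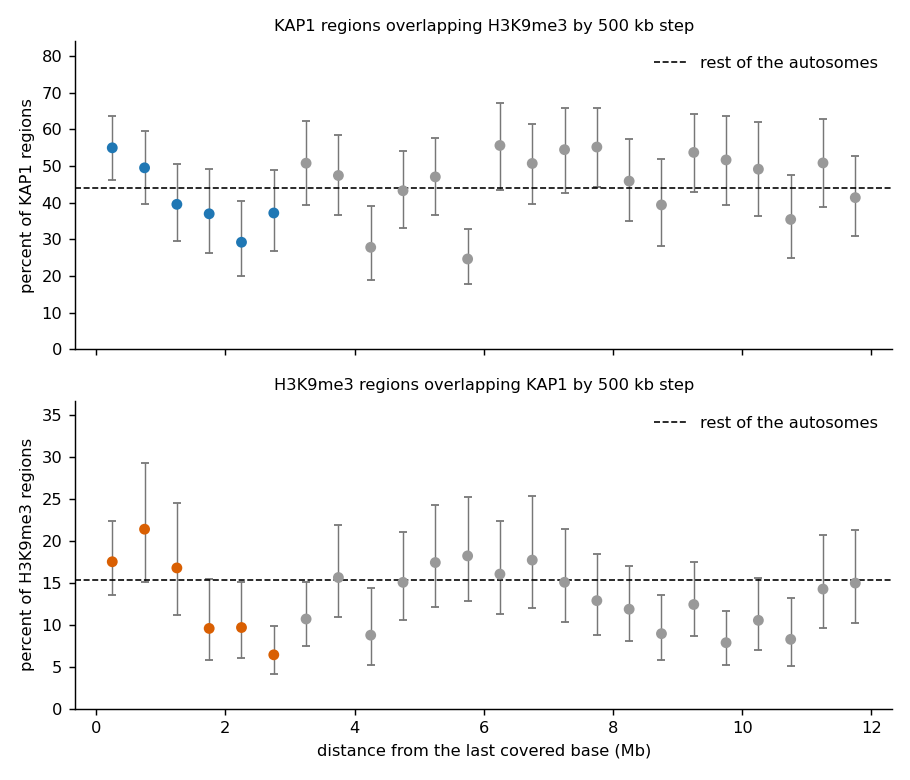
Share of KAP1 peaks that overlap H3K9me3 (top) and of H3K9me3 regions that hold KAP1 (bottom) by 500 kb step from the last covered base, with 95% Wilson intervals. Coloured points are the distal ends, grey points continue inward, and the dashed line is the rest of the autosomes. The KAP1 share goes from 54.9% in step 1 to 29.2% in step 5, and single steps farther inward range from 24.6% to 55.6%.

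Seen from the mark, 146 of 1136 H3K9me3 regions of the distal ends held KAP1 (12.9%, 11.03 to 14.9), against 15.4% in the rest, a difference of -2.5 points (-4.36 to -0.395). This difference depends on where the end is drawn and on single chromosomes. The share was 17.5%, 21.4% and 16.8% in steps 1 to 3 and 9.59%, 9.70% and 6.44% in steps 4 to 6. With ends of 1.5 Mb the difference was 3.07 points (-0.0121 to 6.61). Leaving out chromosome 1, 2, 4, 5 or 16 moved the upper bound above 0, and without chromosome 2 the difference was -1.42 points (-3.46 to 0.876). On chromosome 2 just 2 regions held KAP1 (1.75%). When overlap was counted only for KAP1 peaks covered over 50% or more of their length, the difference was -1.44 points (-3.18 to 0.564). Of the 146 regions with KAP1, 110 held 1 peak and 36 held more (24.7%, 18.4 to 32.2), near the 27.4% of the rest.

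Single chromosomes spread widely in overlap, with few peaks behind each. The interval of the difference in KAP1 overlap between end and rest lay above 0 on 2 of 19, chromosomes 13 and 17, where 14 of 20 and 16 of 20 peaks overlapped. It lay below 0 on 2 of 19, chromosomes 15 and 16, where 9 of 58 and 5 of 21 did. Among tiles of the rest 12.5% lay above and 12.7% below, so these numbers of ends are near the background. For the share of H3K9me3 regions with KAP1 the interval lay above 0 on chromosome 6 (18 of 76), beside 10.5% of tiles. It lay below 0 on 3 of 19, chromosomes 2, 4 and 5 (1.75%, 5.88% and 7.45%), beside 6.73% of tiles.

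Width and score of KAP1 peaks differed little between the ends and the rest. The median KAP1 width was 636 bp (615 to 660) in the distal ends and 650 bp (646 to 654) in the rest. The median KAP1 score was 104.8 (100.1 to 109.4) and 106.8 (105.7 to 107.7). By step the median KAP1 width ran from 605.5 to 659 bp and the median score from 93.2 in step 5 to 113.8 in step 4. The score of 291.4 that marks the top decile of the list was reached by 41 of 503 peaks (8.15%, 6.07 to 10.9), an interval that includes the 10.3% of the rest. Just inside the 3 Mb limit the last 100 kb held 12 KAP1 peaks with a median score of 82.8, and the first 100 kb outside it held 20 with 117.0.

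H3K9me3 regions were somewhat wider in the distal ends than in the rest, but not than in the 3 Mb next to the centromere, where the median width was 729 bp (686 to 806) and the median score 63 (59 to 68). Their median width was 682.5 bp (631 to 742) in the distal ends and 610 bp (603 to 618) in the rest, and 757 bp (702 to 889) in the outermost step alone. The median score was 57 (53 to 61) in the distal ends, 53 (52 to 54) in the rest and 64 (57 to 76) in the outermost step. Among the higher-scoring 50% of regions the ratio of median widths was 1.02 (0.963 to 1.10), so the difference was not seen there. In steps 2 to 6 the median width ran from 588 to 744 bp. Chromosome by chromosome, the median width in the end was above that of the rest on 12 autosomes and below it on 7. The ratio ran from 0.772 on chromosome 18 to 1.57 on chromosome 12. The median score was above that of the rest on 10 autosomes and below it on 8. Such counts were not made for tiles of the rest. By tertile of width over all autosomes, the density ratio of ends to rest was 1.17 (1.05 to 1.30) for the narrowest regions, 1.31 (1.17 to 1.45) for the middle and 1.47 (1.33 to 1.62) for the widest. The last 100 kb inside the limit held 45 H3K9me3 regions with a median score of 43, and the first 100 kb outside held 37 with 42.

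Within the ends KAP1 peaks with the mark scored higher and were wider, as in the rest. The median score was 134.6 (117.9 to 151.4) for the 216 peaks with H3K9me3 and 94.3 (89.8 to 101.2) for the 287 without. The corresponding values in the rest were 136.1 and 95.6. Of the 216 peaks, 125 were covered by the mark over their whole length (57.9%, 51.2 to 64.3), beside 52.7% in the rest. For the 287 peaks without it the median distance to the mark was 20.2 kb, beside 18.6 kb in the rest. Overlap by tertile of KAP1 score was 30.8%, 35.9% and 63.6% in the ends and 28.1%, 39.7% and 64.0% in the rest, and the interval of the difference included 0 in each tertile. In the ends 103 of the 421 widest H3K9me3 regions held KAP1 (24.5%, 20.6 to 28.8), against 32.1% in the rest, a difference of -7.65 points (-11.6 to -3.24). The value for the widest regions was not recomputed without chromosomes 2 and 4. Without them the difference for regions of all widths was -0.649 points (-2.85 to 1.84).

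H3K9me3 regions stood alone less often in the ends than in the rest, and for KAP1 peaks the intervals of the shares overlapped. Peaks with no other KAP1 peak within 10 kb made up 48.9% (44.6 to 53.3) of KAP1 peaks in the ends and 46.0% (45.3 to 46.8) in the rest. The largest chain of peaks spaced that closely had 6 members in the ends and 101 in the rest. For H3K9me3 37.6% (34.8 to 40.4) stood alone in the ends and 45.7% (45.2 to 46.2) in the rest. The largest chain had 28 members in the ends and 41 in the rest, and the median gap to the nearest neighbour was 4.53 kb against 7.40 kb. KAP1 peaks in chains overlapped the mark in 56.8% (50.7 to 62.7) and single ones in 28.5% (23.2 to 34.4). The rest was much the same, with 59.5% and 25.7%. In the ends 11.4% of chained H3K9me3 regions (9.29 to 13.98) and 15.2% of single ones (12.1 to 18.9) held KAP1, and these intervals overlap. In the rest the shares were 18.6% and 11.6%. The chained regions of the ends include the chain of 28, which lies in step 6 of chromosome 2, where no region held KAP1.

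Of the 5 highest-scoring KAP1 peaks of the ends 1 overlapped the mark, and none had another KAP1 peak within 10 kb. Among the 257 peaks of the rest that scored as high, 17 overlapped the mark (6.61%, 4.17 to 10.3). The first 2 were on chromosome 9 at chr9:123438107-123438915 (score 2702, 88.9 kb from H3K9me3) and chr9:123370820-123371524 (score 2348, 73.0 kb). They were followed by chr5:150040195-150040965 (score 2096, 32.2 kb) and chr10:127895242-127895883 (score 1703, 274.0 kb). The fifth, chr9:123259774-123260748 with a score of 1566, was covered by the mark over its full 975 bp and ranked first among KAP1 peaks with H3K9me3. The next of that class were chr10:128830395-128832986 (score 764.5, all 2592 bp covered) and chr3:158541347-158544002 (score 727.5, 2305 of 2656 bp covered). The peaks ranked 1, 2 and 5 thus all lay in step 2 of chromosome 9.

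Of the 5 highest-scoring H3K9me3 regions of the ends, all but the second lay in the outermost 500 kb, which held 285 of the 1136 regions. The score of 191 that marks the top decile of the list was reached by 113 of 1136 regions (9.95%, 8.34 to 11.8). In the rest 10.1% reached it, so the share of regions at that height was not raised in the ends as a whole. The upper tertile of score made up 36.0% of the regions in the ends and 32.8% in the rest. From the lower to the upper tertile of score, the density ratio of ends to rest was 1.21 (1.09 to 1.35), 1.29 (1.16 to 1.43) and 1.44 (1.30 to 1.59). The region ranked first was chr17:95211597-95222584, 10988 bp wide with a score of 1823 and 1 KAP1 peak, 51.3 kb from the end of chromosome 17. The second, chr11:120181530-120196387, was the widest at 14858 bp, had a score of 1592 and held 5 KAP1 peaks, 1.65 Mb from the end. Those ranked 3 to 5 were again at the tips, at chr11:121715585-121725028 (score 1215, 1 KAP1 peak), chr6:149269942-149277847 (score 1104) and chr16:98232818-98240035 (score 955). Neither of the last 2 held KAP1, and on chromosome 16 the nearest peak ended 0.079 kb before the region. Chosen after values were seen, chr3:158290496-158298014 held the most KAP1 peaks of any region in the ends, 6 in 7519 bp.

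The centromere-proximal ends of the same chromosomes held more regions that the lists share. The 3 Mb after the first covered base, next to the centromere, held 560 KAP1 peaks and 1027 H3K9me3 regions. Their density ratio to the autosomes outside both ends was 1.32 (1.21 to 1.44) for KAP1 and 1.19 (1.12 to 1.27) for H3K9me3. A density above the rest over 3 Mb was thus not particular to the distal ends. The mark covered 2.21% of the proximal and 2.15% of the distal ends. KAP1 peaks with H3K9me3 were less dense in the distal than in the centromere-proximal ends (ratio 0.788, 0.656 to 0.946), while the ratio for KAP1 peaks without it was 1.0035 (0.849 to 1.19). H3K9me3 regions without KAP1 were denser distally (1.19, 1.08 to 1.30) and those with KAP1 less dense (0.753, 0.603 to 0.938). The share of H3K9me3 regions with KAP1 was 12.9% distally and 18.9% proximally, a difference of -6.04 points (-9.14 to -2.96).

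No mm9 annotation was used, so no region is assigned to a gene. In the gene order of the GRCm38.p6 RefSeq table the outermost protein-coding genes are of mixed kinds. They include vomeronasal receptor genes (Vmn2r87, Vmn2r86, Vmn2r85 and Vmn2r84) at the end of chromosome 10, Cr2, Cr1l, Cd46 and Cd34 at the end of chromosome 1, and Tpcn2 and Ccnd1, which encodes cyclin D1, near that of chromosome 7. Chromosome 14 ends with Fgf14, Itgbl1 and Nalcn, the last of which encodes a sodium leak channel. Which of the listed regions lie in or near these genes was not analysed here.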

How the data were processed

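ChIP-seq peak lists of 2 libraries were analysed, 1 with a KAP1 and 1 with an H3K9me3 antibody, and the no-antibody library was not analysed here. Per the submitters' processing notes, Bowtie2 2.2.1 and mm9 were used. KAP1 peak names have the form written by MACS, per the file contents. Which caller made the H3K9me3 list, with what settings, and whether either list had a control, is not given in the sources used here. Each region carries a score, deposited by the authors, from 70 up for KAP1 and from 11 up in whole numbers for H3K9me3. Its scale is unknown and it was used only within its list. Total reads are not given, so depth is unknown.

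Positions are mm9, counted from 1. Regions were placed by midpoint. The rest runs from the first covered base to the distal end, and assembly gaps were not removed. Densities have exact Poisson intervals, density ratios exact conditional (Clopper-Pearson) intervals, shares Wilson intervals, differences of shares Newcombe intervals and medians order-statistic intervals, all 95%. Tiles of 3 Mb and bins of 500 kb of the rest, counted from the end, describe variation along chromosomes. Names in both lists are numbered in order of position with gaps, so each list is part of the numbered calls. Named are the 5 highest-scoring regions of each list in the ends, the 3 highest KAP1 peaks with H3K9me3, last regions, the 3 densest steps of each list and the chromosomes that stand apart. The members and these choices were made with earlier results of these data known. The computation was tested on simulated lists. Alternatives were other end lengths, the upper 50% by score, merged regions, other overlap limits and chromosomes left out. Python 3.11.15, numpy 2.4.6, pandas 2.3.3 and scipy 1.17.1 were used.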

Additional observations from a re-analysis of the deposited data

How the results depend on the processing

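Of 100 values recomputed under 11 settings, 92 stayed within the interval of the reported value (counts within 1.5 times), 7 moved outside it and 1 reversed. With 1.5 Mb ends the share of H3K9me3 regions holding KAP1 reversed, to 3.07 points above the rest. The difference in KAP1 overlap was then 5.16 points, the KAP1 density ratio 1.39 and the H3K9me3 ratio 1.22. With 6 Mb ends the KAP1 median score ratio was 1.02, and the KAP1 overlap difference was -3.31 points, with an interval below 0 (-6.39 to -0.158). With only the higher-scoring 50% of regions the H3K9me3 median width ratio was 1.02, the H3K9me3 ratio in the outermost 500 kb was 2.25, and the KAP1 overlap difference there was 10.4 points with an interval that included 0 (-1.78 to 21.2). Without chromosomes 2 and 4 the H3K9me3 density ratio of the whole ends was 1.198. The last setting and those for the outermost 500 kb were added after the data were seen. What caused the shifts was not tested. With each autosome left out in turn, the density ratios of the outermost 500 kb ran from 1.63 to 1.79 for KAP1 and from 1.79 to 2.11 for H3K9me3, and those of the whole ends from 1.13 to 1.21 and from 1.24 to 1.37. No paired analysis was possible because each antibody has a single library, which also means that leaving out replicates was not an option. With depth unknown, a place without a listed region is not shown to lack KAP1 or the mark.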

Other observations

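Gaps in the numbering of region names give a further measure, since they show how many numbered calls are not in a list. On each chromosome, numbers were counted from the first to the last listed region of the part. Unlisted calls outside that stretch were missed. The kept shares are therefore too high, and most so where a chromosome has few listed regions, as in the outermost step. In the outermost 500 kb 122 of 185 KAP1 calls so counted were kept in the list (65.9%, 58.9 to 72.4), against 54.0% in the rest (53.5 to 54.6). The intervals do not include the missed calls, and their part in this difference was not tested. Over all calls so counted, kept or not, the density ratio of the outermost step to the rest was 1.40 for KAP1 and 1.97 for H3K9me3. Missed calls, which weigh most on the outermost step, make these ratios too low rather than too high. For H3K9me3 285 of 335 calls so counted were kept in the outermost step (85.1%, 80.9 to 88.5), close to the 84.8% of the rest. Over the whole distal ends 90.7% were kept (88.9 to 92.2). How the calls were selected for the lists is not given in the sources used here.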
